A study of Mus musculus with 6 samples.

Results

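The 9 genes described here take up, carry, oxidise, store or clear retinoids, and were chosen by name (Stra6, Rbp4, Rdh5, Rdh10, Crabp1, Crabp2, Rlbp1, Lrat and Abca4) among the 18193 genes with a probe set of a single gene symbol. They were read by 11 such probe sets, with 2 each for Rdh10 and Lrat. Expression was measured from total RNA of choroid plexus epithelium taken from whole mouse brain, on 6 single-colour oligonucleotide arrays. By the sample descriptions, 3 arrays were wild type (WT) and 3 were RAG-/-, all on the B10.PL strain. RAG-/- mice lack the recombinase that assembles antigen receptor genes, and with it mature lymphocytes. No label gives an age, a treatment, a pooling of animals or which RAG gene was disrupted. Nothing states that the samples of a group came from separate animals, so the p-values cover the spread of these samples alone, and it may be technical.

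Vitamin A travels in blood as retinol bound to RBP4, which itself rides on transthyretin, and enters epithelia that face a blood barrier through the receptor STRA6. Inside a cell retinol is esterified by LRAT for storage, or oxidised by retinol dehydrogenases to retinal and then by aldehyde dehydrogenases to retinoic acid, which CRABP proteins bind and nuclear receptors read. RDH5, RLBP1 and ABCA4 are best known from the visual cycle of the eye. The choroid plexus makes transthyretin and is a known site of retinoid handling, with retinoic acid synthesis in its stroma and in the meninges.

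Titles carry a code that 1 WT and 1 RAG-/- array have in common, which gives 3 pairs, numbered like the replicates. In pair 1 the descriptions say that the samples had been reversed, and the genotypes in the titles are the opposite of those described. Every comparison is therefore given by description and by title, and arrays are named by description throughout. By title, WT replicate 1, RAG-/- replicate 2 and RAG-/- replicate 3 form the RAG-/- group. Rag1, 1 of the genes a RAG-/- mouse may lack, differed by 0.93 by description (exact permutation p = 0.3, two-sided) and by 2.22 by title (exact permutation p = 0.1, the smallest that 3 against 3 arrays can give), higher in the RAG-/- group under either reading, and Rag2 differed by 0.05 and -0.68 (exact permutation p = 1 and 0.6). Both probe sets were dim and lay below the filter described below. Whether those probe sets lie inside the deleted sequence is not given in the sources used here, so they check nothing. RAG-/- replicate 2 stood apart, at 106 on the first principal component against -69.3 to 31.2 for the other arrays. Pair 3 stood apart in RNA quality, with a 3′ to 5′ ratio of the Gapdh control probe sets of 15.7 and 11.4 against 1.93 to 2.38 in pairs 1 and 2, and of the beta-actin control probe sets of 26.2 and 24.1 against 2.99 to 4.52. Xist, made from the inactive X chromosome of females, was at 9.04 and 7.43 in RAG-/- replicates 1 and 3 and between 12.20 and 13.19 in the other 4 arrays. The labelled epithelium was present on every array: the 13 measured epithelium markers averaged between 12.79 and 13.82, and all 13 passed the filter on dim probe sets. Other brain tissue was present on every array too. The neuron markers averaged between 9.27 and 12.03, the astrocyte markers between 10.75 and 12.35 and the oligodendrocyte markers between 9.78 and 11.70. These bulk values do not say which cells gave the signal of a gene.

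Values below are log2(intensity + 16) after quantile normalization, a scale that understates changes of dim probe sets. The filter set aside the 40% of probe sets with the lowest mean. Of the 9 genes, 7 lay above it, and Crabp1 and Lrat lay below it. The percentile of a probe set's signal among all 45037 probe sets of an array describes that probe set's brightness and does not order the genes by RNA amount.

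The visual cycle genes Rdh5 and Abca4 gave very bright signals and Rlbp1 an intermediate one. Rdh5, which oxidises 11-cis retinol in the eye, lay between the 94.9 and 99.2 percentiles of the 6 arrays. Its log2 values were 13.13, 13.29 and 12.61 in WT replicates 1, 2 and 3 and 13.70, 11.76 and 12.81 in RAG-/- replicates 1, 2 and 3. The highest and the lowest of these arrays were thus both RAG-/-, and the groups overlapped. Abca4, a transporter that clears retinal adducts from photoreceptor membranes, lay between the 91.7 and 97.6 percentiles. Its values were 12.58, 12.65 and 12.46 in WT and 12.74, 11.03 and 12.55 in RAG-/-. Of these 6 arrays 5 lay within 0.28 of each other, and RAG-/- replicate 2 lay 1.43 below the lowest of them. Rlbp1, which binds 11-cis retinoids, lay between the 56.5 and 77.6 percentiles, at 8.80, 8.08 and 9.13 in WT and 9.03, 7.13 and 8.88 in RAG-/-. Within each group its lowest array was the one of pair 2.

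The promoters of these 3 genes are shown because they were low together in RAG-/- replicate 2 and because each has a single annotated window. Each is the 250 bases before the RefSeq transcription start, from build GRCm38.p6 and written in the direction of transcription. Capitals mark the letters TAATCC or their reverse complement, the core recognised by OTX2 and CRX, homeodomain factors of choroid plexus and photoreceptors. The positions are chr10:128919298-128919547 on the minus strand for Rdh5, chr7:79387028-79387277 on the minus strand for Rlbp1 and chr3:122044210-122044459 on the plus strand for Abca4.
Rdh5: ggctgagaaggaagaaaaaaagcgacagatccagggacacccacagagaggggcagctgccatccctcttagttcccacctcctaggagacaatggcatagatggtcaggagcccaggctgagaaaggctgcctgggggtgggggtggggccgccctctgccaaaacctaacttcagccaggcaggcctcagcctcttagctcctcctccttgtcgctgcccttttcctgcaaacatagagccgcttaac
Rlbp1: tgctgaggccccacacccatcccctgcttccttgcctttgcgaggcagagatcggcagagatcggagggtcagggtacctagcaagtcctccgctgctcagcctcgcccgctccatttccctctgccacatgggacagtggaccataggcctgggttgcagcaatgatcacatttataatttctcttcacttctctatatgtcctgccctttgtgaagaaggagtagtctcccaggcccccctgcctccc
Abca4: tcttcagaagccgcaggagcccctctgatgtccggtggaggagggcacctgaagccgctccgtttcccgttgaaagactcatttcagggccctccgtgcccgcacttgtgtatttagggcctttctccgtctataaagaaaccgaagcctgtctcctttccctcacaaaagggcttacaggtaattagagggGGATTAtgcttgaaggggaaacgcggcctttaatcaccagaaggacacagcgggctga
Windows were found for 7 of the 9 genes, with 4 for Stra6 and 2 for Rbp4. Searched on both strands, TAATCC occurred in 1 of these 7 genes, Abca4, starting 58 bases before the transcription start, and in 6.25% of all 32851 windows. AGGTCA, the core that nuclear receptors read, occurred in 0 of the 7 genes and in 14.0% of all windows. Direct repeats of it with 2 or 5 bases between, the spacings known for retinoic acid receptors, each occurred in 0 of the 7 genes and in 3 of all windows. A match is a run of letters and not a shown binding site, and its absence covers this window only.

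Stra6, the cell surface receptor that takes retinol from RBP4, had a mid-range signal between the 53.6 and 78.4 percentiles. Its log2 values were 7.95, 8.59 and 8.46 in WT and 9.22, 6.93 and 7.71 in RAG-/-. By description the groups overlapped, with RAG-/- replicate 1 the highest of all and RAG-/- replicate 2 the lowest. By title the 3 arrays of the RAG-/- group (7.95, 6.93 and 7.71) all lay below the 3 of the WT group (9.22, 8.59 and 8.46). Rbp4, the carrier of retinol in blood, lay between the 62.1 and 91.7 percentiles, at 11.03, 9.62 and 9.03 in WT and 8.69, 7.60 and 9.58 in RAG-/-. WT replicate 1 was its brightest array and RAG-/- replicate 2 its dimmest, 3.43 apart.

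Rdh10, the dehydrogenase that makes retinal for retinoic acid synthesis, gave a bright signal. At its brighter probe set it lay between the 89.2 and 95.6 percentiles. There it had the smallest range over arrays among the brightest probe sets of the 7 genes above the filter. Its brighter probe set read 11.40, 11.17 and 11.58 in WT and 11.34, 10.61 and 11.98 in RAG-/-, a range of 1.38. The other read 10.28, 9.39 and 10.42 in WT and 10.03, 8.93 and 10.89 in RAG-/-, between the 75.7 and 90.9 percentiles. Its range was 1.96, so the small range holds for the brighter probe set only. Both probe sets put the 6 arrays in the same order, in all 15 of 15 comparisons of arrays, with RAG-/- replicate 3 highest and RAG-/- replicate 2 lowest.

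Crabp2, which hands retinoic acid to its nuclear receptors, varied most of the 9 genes. Its values were 10.33, 7.22 and 7.42 in WT and 8.46, 4.49 and 8.10 in RAG-/-, a range of 5.84. In deposited intensity it was 1284 in WT replicate 1 and 8.40 in RAG-/- replicate 2, where it lay at the 8.77 percentile and so close to the dimmest signals of that array. The group overlap was wide, since WT replicates 2 and 3 lay below RAG-/- replicates 1 and 3. Its relative Crabp1 was dim on every array, between the 4.56 and 37.9 percentiles, at 5.63, 5.44 and 5.78 in WT and 6.06, 4.34 and 4.32 in RAG-/-. RAG-/- replicates 2 and 3 lay below the other 4 arrays.

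Lrat, which esterifies retinol for storage, was dim at both probe sets. The brighter one read 6.35, 5.13 and 4.13 in WT and 5.40, 5.85 and 7.0 in RAG-/-, and the other 6.21, 4.76 and 4.97 in WT and 5.74, 5.68 and 5.72 in RAG-/-. They ordered the arrays alike in 11 of 15 comparisons of arrays and named different arrays as highest and lowest. The brighter probe set lay between the 0.557 and 54.7 percentiles.

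**Figure D1:**
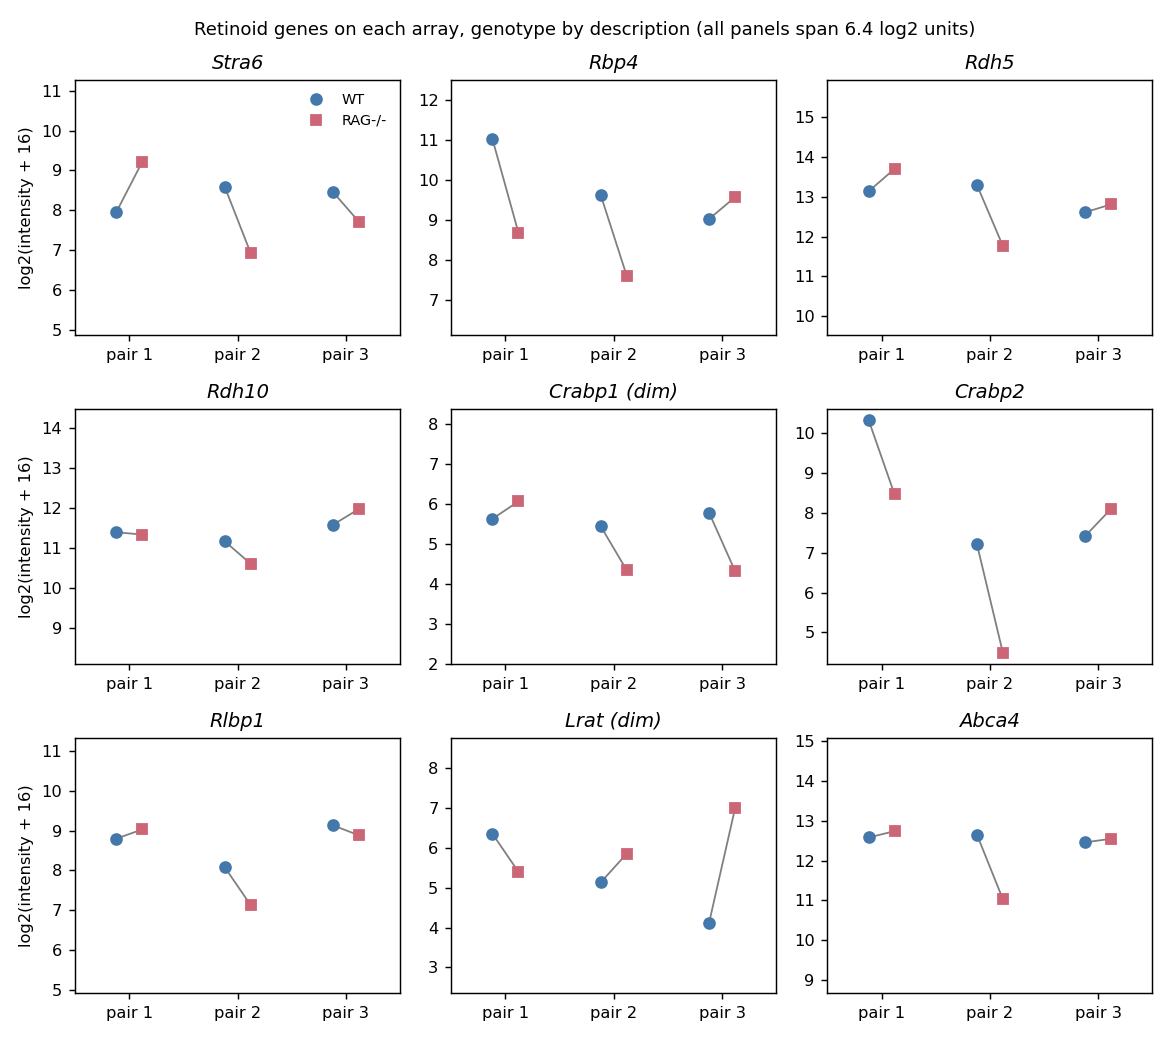
Log2(intensity + 16) of the brightest probe set of each gene by pair, with WT as circles and RAG-/- as squares by description, and a line joining the arrays of a pair. All panels span the same height. In pair 2 the RAG-/- array is the lower one for the 7 genes above the filter and for Crabp1, while the direction varies in pairs 1 and 3.

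None of the 9 genes differed between RAG-/- and WT past the threshold under either reading. By description the limma fit called 0 of the 9 at an adjusted p under 0.05, where 0% of 27023 probe sets were called, and 0 of the 9 had an unadjusted p under 0.05, against 192 probe sets (0.711%). The differences of the 9 had a median of -0.38, with 8 lower and 1, Lrat, higher, beside a median of -0.01 over 13537 genes, of which 51.1% were lower. The intervals were wide. Lower values across the group without overlap were found for 0 of the 9 and higher ones for 0, against 1.41% and 1.69% of tested genes. Rbp4 differed by -1.27 (SE 0.63; 95% interval -2.73 to 0.18; limma adjusted p = 1), lower in 2 of 3 pairs, from 9.89 ± 1.03 in WT to 8.62 ± 0.99 in RAG-/- (SD, n = 3). Crabp2 differed by -1.30 (SE 1.16; 95% interval -3.97 to 1.37; limma adjusted p = 1), also lower in 2 of 3 pairs, from 8.32 ± 1.74 to 7.02 ± 2.20 (SD, n = 3). For Stra6, Rdh5, Rdh10, Rlbp1 and Abca4 the difference was under 0.5 in size, at -0.38, -0.26, -0.07, -0.32 and -0.46. The 95% intervals of these 5 ran from -1.66 at the low end to 0.93 at the high end, so these arrays do not show that the genotypes were alike.

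Without RAG-/- replicate 2, 5 of these differences changed sign: Stra6 was at 0.13, Rdh5 at 0.24, Rdh10 at 0.28, Rlbp1 at 0.28 and Abca4 at 0.08. Rbp4 was then at -0.76 and Crabp2 at -0.04. In that setting 4 probe sets of the whole table passed, Xist and 3 unnamed ones. The unnamed ones lay between 9.73 and 12.51 in RAG-/- replicates 1 and 3, the arrays low in Xist. In the other arrays they lay between 4.07 and 5.60. With all 6 arrays this split runs within the RAG-/- group by description. Without RAG-/- replicate 2 it coincides with genotype by description, so the split and genotype cannot be told apart in that setting. Its part in the differences was not tested. With the pair as a block 0 of the 9 genes passed (0% of 27023 probe sets), 0 had an unadjusted p under 0.05 (2.35% of probe sets), and the adjusted p of the 7 genes above the filter was 0.9996 or more.

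With all 6 arrays, the 12 fibroblast and meninges markers were all lower in RAG-/- by description, with a mean difference of -1.02, and the 13 epithelium markers were all lower, with a mean difference of -0.20. Relative to the fibroblast mean, a comparison added after seeing the data, Rbp4 differed by -0.25 and Crabp2 by -0.28, while Stra6, Rdh5, Rdh10, Rlbp1 and Abca4 turned to 0.64, 0.76, 0.94, 0.70 and 0.56. Lrat was then higher by 1.90 without overlap, where 23.7% of genes with no filter were so. Relative to the epithelium mean, Rbp4 and Crabp2 differed by -1.07 and -1.10 by description and Rdh10 by 0.13. The fibroblast mean's own difference by description, -1.02, is subtracted from that of every gene alike. Stra6, Rdh5, Rdh10, Rlbp1 and Abca4, all above -1.02 before, thus had to turn positive. Rbp4 and Crabp2, both below -1.02 before, had to stay negative, so these signs add nothing to the differences given above.

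By title the groups of Stra6 did not overlap. Its difference was -1.23 (SE 0.38; 95% interval -2.09 to -0.36), from 8.76 ± 0.41 in the WT group to 7.53 ± 0.54 in the RAG-/- group (SD, n = 3), which is 2.34-fold on this scale, and it was lower in all 3 pairs, by 1.26, 1.67 and 0.75. It did not pass the limma threshold over all probe sets (unadjusted p = 0.0112, adjusted p = 0.9999), nor with the pair as a block (unadjusted p = 0.0026, adjusted p = 0.9257). The exact permutation test gave p = 0.1, two-sided, the smallest possible. Groups that did not overlap, with RAG-/- lower, were found for 342 genes by title, or 2.53% of 13537, and for 191 by description. Leaving out single arrays kept the Stra6 difference by title between -1.44 and -0.92.

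For the other genes by title, Rbp4 turned to 0.29 and Crabp2 came to -0.06, since the brightest array of both moved into the RAG-/- group. Rdh5 differed by -0.63, Abca4 by -0.56, Rlbp1 by -0.48 and Rdh10 by -0.04. The dim probe sets parted more: Lrat was higher by 1.52 at its brighter probe set, where the groups did not overlap (2.2% of tested genes by title were higher without overlap, and 2.76% with no filter), and by 0.71 at the other, where they did. Crabp1 differed by -1.0, with overlap, where 3.17% of genes with no filter were lower without overlap. In all, 0 of the 9 genes passed by title (0% of 27023 probe sets). An unadjusted limma p under 0.05 was found for 3, Stra6, Lrat and Crabp1, and for 1.23% of probe sets above the filter. With the pair as a block these 3 again had an unadjusted p under 0.05, as did 4.14% of probe sets above the filter. In that fit 0 of the 9 passed (0.0037% of probe sets). Lrat and Crabp1 took their p from the fit without the filter, where no such share was computed. Both shares are thus a background for Stra6 alone.

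**Figure D2:**
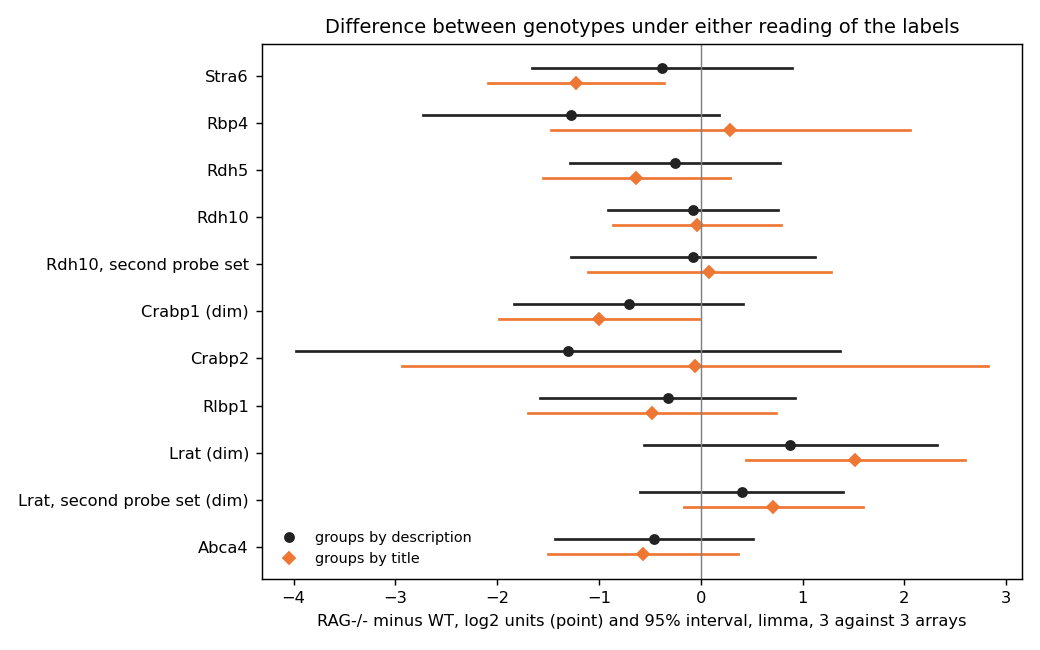
RAG-/- minus WT in log2 units for the 11 probe sets, with the 95% interval of the limma fit, by description (circles) and by title (diamonds), each from 3 against 3 arrays. The interval for Stra6 runs from -2.09 to -0.36 by title and crosses 0 by description, and Rbp4 lies on opposite sides of 0 under the 2 readings.

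Within pairs the direction of the 7 genes above the filter was not shared. The RAG-/- array by description was the lower one for 3 of 7 in pair 1, 7 of 7 in pair 2 and 2 of 7 in pair 3, where it was lower for 46.9%, 52.5% and 53.4% of tested genes. The median difference of the 7 was 0.16, -1.62 and 0.20. In a limma F test of the 3 pairs with genotype in the model, 3 of the 7 genes above the filter, Rlbp1, Rdh10 and Crabp2, had an unadjusted p under 0.05, against 24.2% of 27023 probe sets, and 0 of the 9 passed after adjustment (0% of probe sets; adjusted p of 0.129, 0.206 and 0.118 for those 3). With genotype by title 0 of the 9 passed (0.518% of probe sets) and 3 had an unadjusted p under 0.05 (26.9%). Mean Rlbp1 was 8.91, 7.61 and 9.0 in pairs 1, 2 and 3, lowest in pair 2. Mean Crabp2 was 9.40, 5.85 and 7.76. Rdh10 was at 11.37, 10.89 and 11.78, highest in pair 3, the pair with the high 3′ to 5′ ratios, whose part in this was not tested. Without WT replicate 2, which leaves RAG-/- replicate 2 alone in its pair and assumed to vary like the rest, Rdh5, Rdh10, Crabp2, Rlbp1 and Abca4 passed (adjusted p between 0.0012 and 0.0153), as did 27.4% of all probe sets. Without RAG-/- replicate 2, Rdh5 passed (adjusted p = 0.0231), as did 11% of all probe sets.

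RAG-/- replicate 2 was the lowest of the 6 arrays for all 7 genes above the filter, and it was the lowest for 31.1% of 13537 genes. Its gap to the next array ran from 0.56 for Rdh10 to 2.73 for Crabp2. This array also had the lowest mean of the epithelium markers, 12.79 against 13.56 to 13.82 in the others, with all 13 of 13 lowest there, and the lowest mean of the fibroblast and meninges markers, 9.70 against 10.85 to 12.29, with 10 of 12 lowest there. It had the highest means of the neuron and astrocyte markers, at 12.03 and 12.35 against 9.27 to 10.95 and 10.75 to 11.86 in the others. Its oligodendrocyte mean was also the highest, at 11.70 against 9.78 to 11.65, but RAG-/- replicate 3 was close to it at 11.65. In such bulk samples, fewer cells of a type and less RNA per cell cannot be told apart.

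Some profiles recurred across arrays, seen after the values were known. Stra6, Rdh5 and Abca4 were highest in RAG-/- replicate 1, which also had the highest epithelium mean (13.82). Rbp4 and Crabp2 were highest in WT replicate 1, like the fibroblast and meninges mean (12.29 there against 9.70 to 11.31) and the endothelium mean (9.23 against 7.70 to 8.68). The means of the pericyte and smooth muscle (9.42), macrophage and microglia (9.03) and retinal pigment epithelium markers (8.28) were highest there too. The part of cell content in either profile was not tested. Taken relative to the epithelium mean of the same array, the range over arrays went from 1.71 to 0.77 for Abca4, from 1.93 to 0.90 for Rdh5, from 2.0 to 1.18 for Rlbp1 and from 2.29 to 1.37 for Stra6. That of Rdh10 went from 1.38 to 0.85, that of Rbp4 from 3.43 to 2.66 and that of Crabp2 from 5.84 to 5.06. All 7 genes and the epithelium mean were lowest in RAG-/- replicate 2, so subtracting that mean had to narrow these ranges. The share of all genes that narrow was not computed, so the narrowing does not tie these genes to epithelium. The fibroblast mean was lowest in that array too, and no such share was computed for it. Relative to the fibroblast mean, the range of Rbp4 was 1.35 and that of Crabp2 3.26, while those of Stra6, Rdh5, Rdh10, Rlbp1 and Abca4 were 2.26, 1.57, 2.02, 1.52 and 1.40, wider than on the raw log2 scale for Rdh10.

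**Figure D3:**
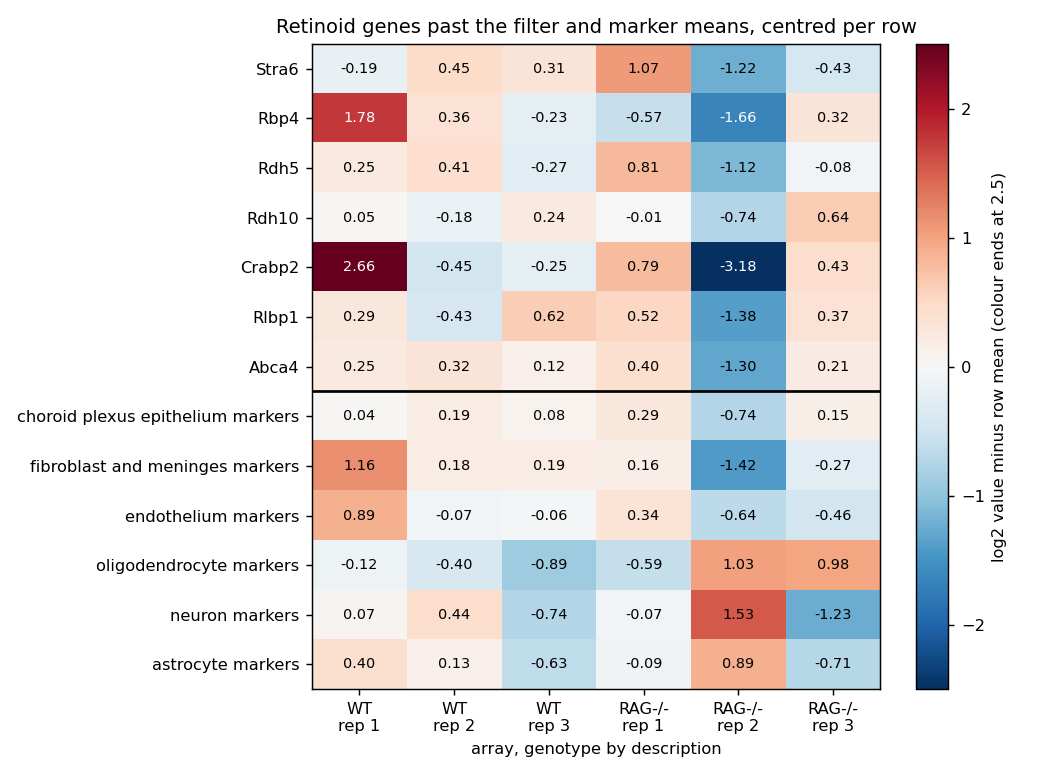
Log2 values of the 7 genes above the filter and mean log2 values of 6 marker lists on each array, each row centred on its mean over the 6 arrays, with colour ending at 2.5. RAG-/- replicate 2 is below the mean in all 7 genes and in the epithelium and fibroblast rows, and above it in the neuron, astrocyte and oligodendrocyte rows.

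Relative to the epithelium mean, the groups by title did not overlap for Stra6, where 0.222% of tested genes were lower without overlap, nor for Lrat, higher by 1.89 and 1.08 at its probe sets, where 7.36% of genes with no filter were higher without overlap. Subtracting a mean that was itself lower by title (-0.37) raises the difference of every gene alike. The 0.222%, against 2.53% on the raw log2 scale, is therefore no sign that Stra6 stood out more. Stra6 was at -5.61, -5.86 and -5.97 in the RAG-/- group by title and at -4.60, -5.12 and -5.15 in the WT group, and the groups differed by -0.85. The two-sided exact permutation test again gave its smallest p, 0.1. Rdh5, Abca4 and Rlbp1 differed by -0.26, -0.19 and -0.11 by title on that scale, with overlap. By description Stra6 differed by -0.18 on that scale, with overlap. Relative to the fibroblast and meninges mean instead, Stra6 differed by -0.87 by title, with overlap. RAG-/- replicates 2 and 3, which both readings call RAG-/-, and WT replicate 1 were also the arrays with the highest oligodendrocyte means (11.70, 11.65 and 10.55 against 9.78 to 10.27). By title the 11 measured oligodendrocyte markers were all higher, by 1.26 on average, and the 13 epithelium markers differed by -0.37 on average. The part of either in the Stra6 difference by title was not tested beyond the values relative to the epithelium mean.

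**Figure D4:**
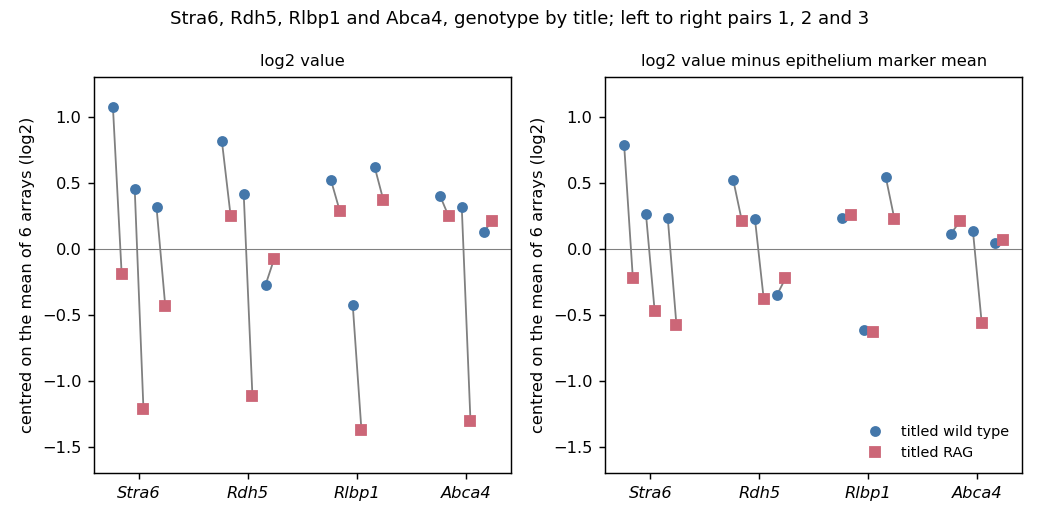
Values of Stra6, Rdh5, Rlbp1 and Abca4 centred on the mean of the 6 arrays, as log2 value (left panel) and as log2 value minus the epithelium marker mean of the same array (right panel), with titled wild type arrays as circles and titled RAG arrays as squares joined within pairs 1, 2 and 3. Stra6 is lower in the titled RAG array of every pair in both panels. The spread of every gene shown, Stra6 included, narrows in the right panel, where the subtracted mean is lowest in the same array as each gene.

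Genes of the eye were looked at because Rdh5, Rlbp1 and Abca4 are best known there. Rpe65, the isomerase that defines retinal pigment epithelium, was dim on every array, between 4.48 and 5.63. The photoreceptor genes Gnat1, Pde6b and Nrl were between 4.19 and 6.09, and 2 of the 8 measured markers of photoreceptors and pineal passed the filter. Of the 10 pigment epithelium markers, Rpe65 included, 8 passed the filter, among them Mitf between 11.30 and 12.82 and the pigment gene Dct between 7.80 and 10.72. The mean of all 10 ran from 6.90 to 8.28, lowest in RAG-/- replicate 2.

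Profiles closest to the 3 genes with the largest SD over arrays, Crabp2, Rbp4 and the dim Lrat, were sought among the genes above the filter, as the root mean square difference of centred log2 values over the 6 arrays. Stra6, the third by SD above the filter, was added. Closest to Stra6 were Gnmt (0.22), Ins2 (0.25) and Epn3 (0.26), where the median over genes was 0.79, and of the other retinoid genes Rdh5 came 58th (0.35). Closest to Rbp4 were Foxc2 (0.23), the collagen gene Col3a1 (0.27) and the macrophage receptor Cd163 (0.30), against a median of 1.09. Closest to Crabp2 were Lcn2 (0.41), Ccn2 (0.46) and Ch25h (0.50), against a median of 1.76, and Rbp4 came 79th (0.97). Closest to Lrat were Hhip (0.35), Tmprss6 (0.37) and Arrdc3 (0.37), against a median of 1.0. These are descriptions over arrays that share pairs and sources.

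The rest of the pathway was described by a list of 77 further genes, of which 66 had a probe set with a single symbol and 44 lay above the filter. By description 0 of the 44 passed the limma threshold, in either direction and with or without the pair as a block (0% of 27023 probe sets), and 0 had an unadjusted p under 0.05 without it. Their median difference was -0.14, with 33 lower and 11 higher. By title 0 passed with or without the block (0% and 0.0037% of probe sets), and 2, Fabp5 and Rarres2, had an unadjusted p under 0.05, against 1.23% of probe sets. With the block 3 of the 44 had an unadjusted p under 0.05 by description and 5 by title, against 2.35% and 4.14% of probe sets.

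Of the 5 carrier and receptor genes above the filter, all 5 were lower in RAG-/- by description, with a median of -0.15 and 0 called. Ttr, the partner of RBP4 in blood, was at 14.77 ± 0.06 in WT and 14.74 ± 0.08 in RAG-/- (SD, n = 3), at the bright end of the scale where little difference can show, and Lrp1 differed by -0.15. The STRA6-like receptor Stra6l was dim and higher in RAG-/- by 0.98 without overlap (limma adjusted p = 1), and Lrp2, a dim megalin probe set, was lower by 0.42 without overlap. With no filter 2.65% of genes were higher and 1.93% lower without overlap by description.

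Among binding proteins and esterases, Fabp5, which binds fatty acids and retinoic acid, differed by 0.60 by description and by 1.38 by title, where the groups did not overlap (12.97, 14.15 and 12.60 against 11.81, 11.65 and 12.13). These higher arrays were again those with the highest oligodendrocyte means, whose part was not tested. Rbp7 differed by 0.37, and the dim Rbp2 by 0.82 without overlap. Dgat1, which can also esterify retinol, was at 9.57 ± 0.09 in WT and 10.02 ± 0.25 in RAG-/- (SD, n = 3), a difference of 0.45 without overlap (limma adjusted p = 1). It was the only 1 of the 44 genes above the filter without overlap by description, where 3.1% of tested genes were so. Pnpla2 differed by -0.21, and Cel by -0.07 by description and by -0.45 by title, without overlap by title.

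All 10 dehydrogenase and reductase genes above the filter were lower in RAG-/- by description, with a median of -0.14 and 0 called, and RAG-/- replicate 2 was the lowest array for 8 of the 10. Adh5 differed by -0.16 and Rdh14 by -0.02. The dim genes Rdh1, Rdh7, Adh4 and Hsd17b6 were higher in the RAG-/- group by title, by 0.80, 0.65, 0.51 and 0.44, without overlap, as were 2.76% of genes with no filter. Rrh, a retinal-binding opsin of pigment epithelium, was lower in both arrays of pair 2 (7.22 in WT and 7.57 in RAG-/-) than in the other 4 arrays (9.0 to 9.35), and Bco2, which cleaves carotenoids, differed by -0.14.

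Of the enzymes that make retinoic acid, all 3 above the filter were lower in RAG-/- by description, with a median of -1.31 and 0 called. Beside them, the fibroblast and meninges markers differed by -1.02 on average, and their part in this was not tested. Cyp1b1 differed by -1.31 (SE 0.59; limma adjusted p = 1), lower in all 3 pairs, by 1.66, 1.93 and 0.33 (with the pair as a block 95% interval -2.15 to -0.47, unadjusted p = 0.0086, adjusted p = 0.9996), and by -0.20 by title. Aldh1a2, the retinal dehydrogenase of meninges and stroma, named after its values were seen, read 11.26, 8.18 and 9.68 in WT and 9.22, 6.06 and 9.56 in RAG-/-. It was lower in all 3 pairs, with a difference of -1.43 (limma with the pair as a block, unadjusted p = 0.014, adjusted p = 0.9996), and by title it differed by -0.07. Like Rbp4 and Crabp2 it was highest in WT replicate 1 and lowest in RAG-/- replicate 2. Aldh1a1 differed by -0.21 by description and by 0.76 by title, and the dim Aldh1a3 by -0.78 by description, without overlap. Of the enzymes that break retinoic acid down, Cyp26b1 differed by -0.21 and Cyp2s1 by 0.57.

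Nuclear receptor genes were represented by 8 above the filter, 7 lower and 1 higher by description (median -0.24), and cofactors and target genes by 7, 4 lower and 3 higher (median -0.10). In both lists 0 passed. Rxrb differed by 0.04, Rora by -0.22, Ncoa1 by -0.17 and Ncoa2 by 0.10. By title Rarg was lower by 0.38 without overlap. Rarres2, a chemoattractant gene named for its response to retinoids, was higher by title, at 9.75 ± 0.23 in the RAG-/- group and 8.37 ± 0.44 in the WT group (SD, n = 3), without overlap and without passing the threshold (limma adjusted p = 0.9999). By title 4 of the 44 genes above the filter, or 9.09%, did not overlap, where 4.73% of tested genes were so.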

How the data were processed

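The authors deposited linear intensities, 1 for each probe set on each array. Per the file's values, each array had been scaled by the authors to a mean of 500 with the lowest and highest 2% set aside. The software behind the deposited intensities is not given in the sources used here. Control probe sets (64 of 45101) were left out. Log2(intensity + 16) was quantile normalized, and the dimmest 40% of probe sets by mean were filtered out, which left 27023. The precision is limited by the number of arrays.

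Differences were fitted with limma 3.58.1 (lmFit, eBayes with trend) in R 4.3.3, Benjamini-Hochberg over all probe sets kept, at 0.05. Genes below the filter took their p from the fit without it. The highest-mean probe set stood for a gene. Only probe sets with 1 symbol were used, so a probe set shared by Rdh5 and Bloc1s1 was left out. The pairing comes from the title codes: within pairs, the arrays' deviations from their group mean had correlations of 0.29, 0.39 and 0.58, all over 0.1, and a block was fitted as an alternative. The scripts were tested on simulated data.

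Named genes were the 9 genes, Rag1, Rag2 and Ttr, the 2 brightest genes of each pathway role, pathway genes called or without overlap under either reading, and the 3 closest profiles to the 3 genes of largest SD. Stra6 was added to the last after its values were seen, and Aldh1a2, Xist, Pttg1 and the single markers named were also chosen after their values were seen. The members and lists were chosen with earlier results of these data known. Alternatives were the scaling, pseudocount, filter, array weights, probe set rule, block, titles and arrays left out.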

Additional observations from a re-analysis of the deposited data

How the results depend on the processing

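None of the 9 genes passed under any of the alternatives run, nor did any of the other retinoid genes. By title with the pair as a block 1 probe set of the table passed, Pttg1, and without single arrays between 0 and 4 did. The count of the 9 genes whose groups did not overlap was 0 by description, 2 by title with or without the block (Stra6 and Lrat), 3 with pair 1 left out (Stra6, Crabp1 and Lrat) and between 0 and 2 without single arrays. By title it was 4 without WT replicate 2 or WT replicate 3. With every array kept, 2.76% of genes with no filter were higher and 3.17% lower without overlap by title. Groups separate more readily with fewer arrays, and the share of all genes without overlap was not computed for the settings that leave arrays out. Those counts therefore say nothing about the 9 genes in particular. The count called between pairs was between 0 and 5 without single arrays. It was 5 without WT replicate 2, where 27.4% of all probe sets passed, and 1 without RAG-/- replicate 2, where 11% did. Both fits leave 1 array in pair 2, assumed to vary like the rest, so nothing is concluded from either count. With array weights Stra6 turned to 0.35, Rdh5 to 0.16, Rdh10 to 0.011 and Rlbp1 to 0.061, and by title, with or without the block, Rbp4 turned to 0.29. Without single arrays the differences ranged from -1.02 to 0.13 for Stra6, from -0.73 to 0.24 for Rdh5, from -0.41 to 0.28 for Rdh10, from -0.66 to 0.28 for Rlbp1 and from -0.77 to 0.078 for Abca4, with the positive end without RAG-/- replicate 2 in each. The median of the 9 genes ranged from -0.77 to 0.13, and was 0.011 with array weights. Rag2 was at -0.082 with a pseudocount of 64, -0.68 by title with or without the block, -0.48 with pair 1 left out and between -0.43 and 0.90 without single arrays. Relative to the fibroblast and meninges mean Stra6, Rdh5, Rdh10, Rlbp1, Abca4 and Crabp1 turned positive (0.31 to 0.94), and relative to the epithelium mean Rdh10 did (0.13). The changes relative to a marker mean follow from subtracting the same amount from the difference of every gene. What lay behind the other changes was not tested. The pair block changed no call of the 9 genes. Dim signal limits Lrat, Crabp1, Rag1 and Rag2, and Crabp2 in RAG-/- replicate 2.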
